A study of Homo sapiens with 41 samples.

Results

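RNA polymerase II (Pol II) was mapped by chromatin immunoprecipitation with sequencing in T47D cells after 1 h of NaCl and in T47D cells without stress, with 2 libraries in each group. These 4 region lists were taken by their titles from 29 peak lists of CTCF, RAD21 and Pol II and 41 samples in all. T47D is a long-established luminal cell line from a human breast cancer and expresses the oestrogen and progesterone receptors. All cells were grown for 48 h in steroid-depleted medium and then overnight without serum, which collects them in G0/G1. The stressed cells then received 110 mM NaCl for 60 min (the series text gives 100 mM), and the no-stress cells received nothing further. Pol II was precipitated with 1 antibody from Millipore. Nothing in the labels says that replicates were separate cultures, and the replicate tag reads 1 for all 4 libraries although the titles number them 1 and 2, so the spread between replicates may be technical.

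Pol II transcribes protein-coding genes. It is recruited at the promoter, often pauses just downstream of it, travels through the gene and is released after the transcript has been cleaved at the polyadenylation site. Raised NaCl draws water out of cells, and hyperosmotic stress is known to repress most genes, to activate MAP kinase pathways and to let Pol II run past gene ends, giving readthrough transcripts that can reach neighbouring genes. The comparison asks where on the genome Pol II lies after the stress. Each list gives broad regions called as occupied, so the measure used throughout is the percentage of bases of a gene, flank or interval that lies inside a called region. It is a measure of extent and not of signal height, and the deposited scores were not used. In chromatin from many cells, fewer cells with Pol II at a place and less Pol II per cell cannot be told apart. Neither sequencing depth nor the calling threshold is stated in the labels or lists.

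The 1 h libraries held 107396 and 216968 regions, against 105302 and 88046 in the no-stress libraries, on chromosomes 1 to 22 and X of hg38. Together these covered 212 and 262 Mb at 1 h, against 292 and 257 Mb without stress. The median region was 957 and 746 bases wide at 1 h, against 1063 and 1111 bases without stress, and regions of at least 10 kb held 32.0 and 12.7% of the covered bases at 1 h, against 44.6 and 44.3% without stress. Replicates shared 16.4% of the bases that either covered at 1 h and 41.6% without stress, while 12.02 to 13.46% was shared across the groups. Replicate 2 at 1 h stands apart in number and width of regions, so counts without it stand beside the results. Among 12 luminal breast markers, 8 were at least 50% covered in both no-stress libraries and 4 in both 1 h libraries. KRT18 and SPDEF, 2 of the 12, were at 0 in both no-stress libraries. Short sets of 5 or 6 defining markers each stood for basal, haematopoietic, fibroblast and endothelial, and neuronal and muscle cells, and 0 of their genes were at least 50% covered in both libraries of either group. The haematopoietic set nonetheless averaged 13.4 and 52.6% at 1 h, against 16.3 and 26.3% without stress. The luminal set averaged 38.3 and 52.7% at 1 h, against 71.7 and 67.7% without stress.

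After 1 h of NaCl, Pol II regions covered less of genes and more of the space between them. Protein-coding genes were covered over 9.28 and 10.6% of their bases at 1 h, against 16.7 and 14.6% without stress, a mean of 9.93 ± 0.917% against 15.6 ± 1.51% (SD, n = 2 each). Bases more than 10 kb from any annotated gene were covered to 3.69 and 5.75% at 1 h, against 1.90 and 1.35% without stress. The groups did not overlap in either measure. Gene coverage was thus 2.51 and 1.84 times the intergenic coverage at 1 h, against 8.76 and 10.8 times without stress, a difference of -2.18 on the log2 scale (exact 2-sided permutation test over libraries, p = 0.333, the smallest that 2 against 2 libraries allow). Without replicate 2 of the 1 h group this difference was -1.95. On each of the 23 chromosomes both 1 h libraries lay below both no-stress libraries in genes and above them in intergenic space.

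**Figure D1:**
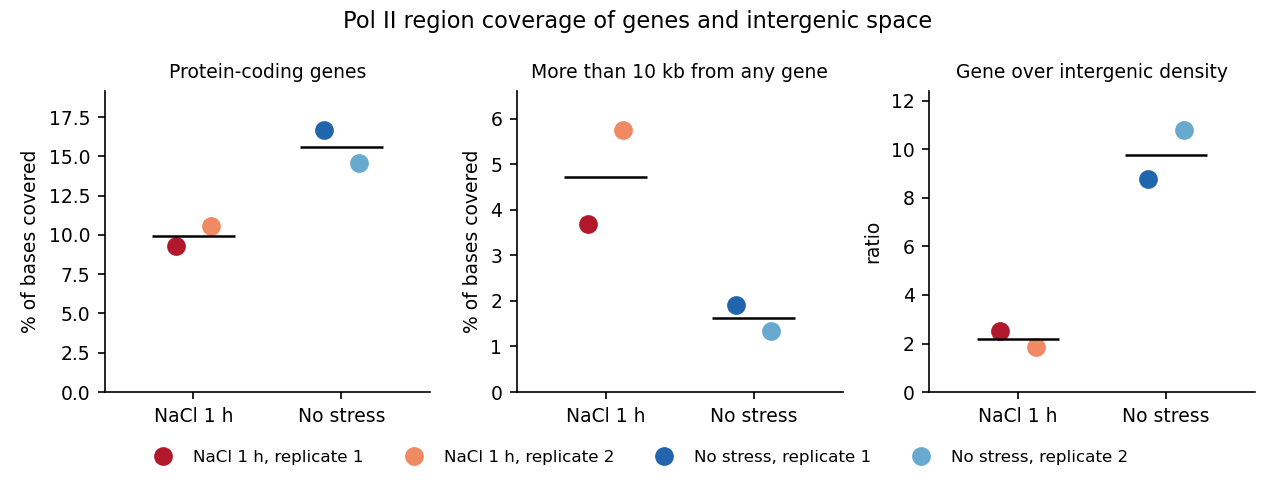
Percentage of bases covered by Pol II regions in protein-coding genes (left) and more than 10 kb from any gene (middle), and the ratio of both (right), for each library, with the group mean as a line. The NaCl 1 h libraries sit at 9.28 and 10.6% in genes, below the no-stress libraries at 16.7 and 14.6%, and above them in intergenic space.

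The higher intergenic coverage at 1 h began beyond 10 kb from genes and held in every band of distance out to over 200 kb. In the first 10 kb outside genes, coverage was 8.98 and 10.4% at 1 h, against 9.87 and 9.80% without stress, so the groups overlapped there. Between 10 and 20 kb it was 5.90 and 7.74% at 1 h, against 3.36 and 2.62% without stress. Beyond 200 kb from any gene it was 2.23 and 5.11% at 1 h, against 0.640 and 0.549% without stress. Wide regions showed the same order, since regions of at least 5 kb alone covered 1.02 and 0.599% of intergenic bases at 1 h, against 0.372 and 0.363% without stress. Of 10589 intergenic tiles of 50 kb tested, 106 (1.00%) lay at least 20 percentage points higher in both 1 h libraries than in both no-stress libraries and 18 (0.170%) lay at least 20 points lower. limma, a linear model with variances shared across features, called 5 tiles higher (0.0472%) and 6 lower (0.0567%) at an adjusted p under 0.05, and 832 higher and 42 lower at an unadjusted p under 0.05. Without replicate 2 of the 1 h group limma called 2478 tiles higher and 56 lower and 229 lay at least 20 points higher, without replicate 1 it called 5198 higher and 54 lower and 417 lay at least 20 points higher, and without either no-stress library it called 0 higher and 0 lower.

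Bases covered in both libraries of 1 group and in neither of the other came to 37.1 Mb for 1 h and 98.8 Mb for no stress. The 1 h replicates shared 66.9 Mb in all and the no-stress replicates 161 Mb, so fewer bases could be particular to 1 h. These totals are therefore not a measure of loss against gain. Of the bases particular to 1 h, 49.5% lay in protein-coding genes and 18.7% lay more than 10 kb from any gene. For the bases particular to no stress the shares were 74.4% in protein-coding genes and 3.45% beyond 10 kb. Segments of at least 10 kb numbered 305 at 1 h and 1135 without stress, and 18.95 Mb was covered in all 4 libraries.

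More genes lay at least 20 points lower than higher at 1 h. Over 16997 protein-coding genes of at least 3 kb with a covered base in some library, 3226 (19.0%) lay at least 20 points lower in both 1 h libraries than in both no-stress libraries and 651 (3.83%) lay at least 20 points higher. limma called 1436 genes lower (8.45%) and 277 higher (1.63%) at 1 h with Benjamini-Hochberg adjustment. The median difference over all genes tested was -3.91 points. limma's calls rest on genes whose replicates were nearly identical, and none was left when coverage was scaled to the library total or when either no-stress library was left out. Without replicate 2 of the 1 h group limma called 1277 lower and 645 higher, and without replicate 1 it called 1469 lower and 1406 higher, so the excess of lower over higher calls was smaller without either 1 h library. The count of genes at least 20 points lower was 2839 after that scaling and the count at least 20 points higher was 712. Without replicate 2 of the 1 h group these counts were 3955 lower and 1322 higher, and without replicate 1 they were 3819 lower and 1204 higher.

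Among the genes with the largest gap, PKM, the muscle and tumour form of pyruvate kinase in glycolysis, was fully uncovered at 1 h. Of its 32.6 kb (chr15:72199029-72231591, whole gene span) 0 and 0% was covered at 1 h, against 100 and 100% without stress (limma, adjusted p = 0.0130). The same values and the same adjusted p held for YWHAG, a 14-3-3 adaptor protein, KRT7, a simple epithelial keratin, RAB35, a small GTPase of endocytic recycling, and PABPC1, which binds the poly(A) tail of mRNAs. They also held for DUSP4, a phosphatase that switches off MAP kinases, for RAP2C, a small GTPase, for TONSL, a replication repair factor, and for THBS1 (the matrix protein thrombospondin) and INPPL1 (an inositol phosphatase), which overlap another coding gene. In these 10 genes the groups did not overlap, as in 39.8% of all genes tested for 1 h below no stress and 18.4% for 1 h above it. Their downstream flanks were lower too where strand was known, though to unlike extents. In RAB35 the 10 kb past its end were covered to 0 and 0% at 1 h, against 100 and 100% without stress. Little was there to lose past THBS1, with 0 and 1.88% at 1 h, against 9.8 and 4.41% without stress. INPPL1 had 0 and 0% at 1 h, against 21.11 and 19.35% without stress.

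At the other end were genes covered from end to end at 1 h and not at all without stress. RCN3, a calcium-binding protein of the endoplasmic reticulum, and FCGRT, the neonatal Fc receptor, each had 100 and 100% covered at 1 h, against 0 and 0% without stress (limma, adjusted p = 0.0130). RCN3 spans chr19:49528003-49543633. Both lie on the strand of RPL13A, which encodes a protein of the large ribosomal subunit, and start 35.7 and 20.4 kb past its end. ZDHHC19 (a palmitoyltransferase), ALDH3A1 (an aldehyde dehydrogenase), GCGR (the glucagon receptor), NAT8L (which makes N-acetylaspartate), GARIN5B, DAND5 (a secreted antagonist of Nodal), AZU1 (a neutrophil granule protein) and IL32 (a cytokine) had the same values and adjusted p. Several of these lie past the end of a gene well covered without stress. On the same strand, DAND5 starts 25.1 kb past the end of CALR, a chaperone of the endoplasmic reticulum, and AZU1 15.5 kb past PTBP1, a splicing regulator. GCGR lies on the strand opposite to P4HB, another such chaperone. The end of GCGR, and not its start, is 29.2 kb past the end of P4HB.

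A wider count bears on this arrangement. Of 386 genes with known strand, room to gain and no overlap with another coding gene that lay at least 20 points higher at 1 h, 34.7% lay within 50 kb past the end of a gene that was at least 50% covered in both no-stress libraries, and 27.98% lay within 50 kb before the start of such a gene. Among all 8525 genes that met the same conditions the shares were 13.2 and 13.5%. In this set of 386, regions at 1 h therefore appeared beside well-covered genes on both sides. Of the 134 genes past an end, 66 were on the same strand as their neighbour. Of all 8525 genes, the 706 past such an end alone averaged 23.4 and 23.1% at 1 h, against 26.6 and 23.1% without stress. The 736 before such a start alone averaged 18.7 and 18.5% at 1 h, against 24.7 and 22.6% without stress. The 419 in both positions averaged 32.2 and 31.0% at 1 h, against 29.6 and 26.9% without stress.

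**Figure D2:**
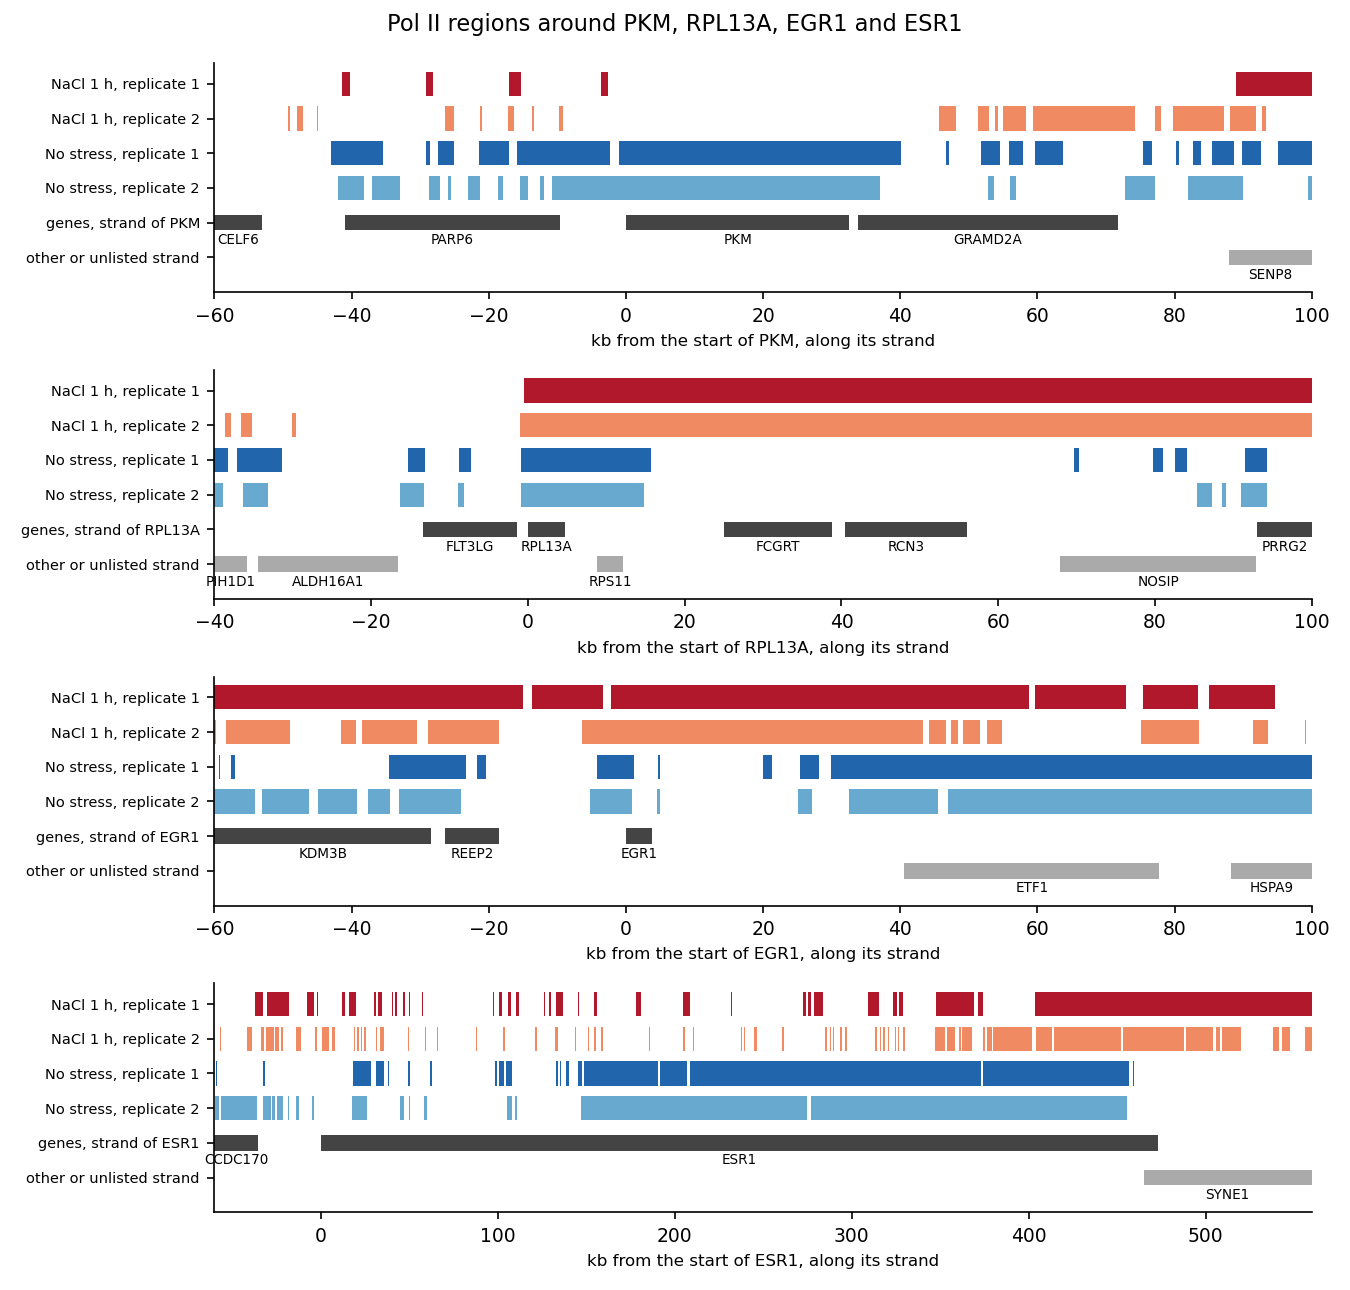
Pol II regions in each library (coloured bars, NaCl 1 h above no stress) and protein-coding genes (dark for the strand of the named gene, light for the other or a strand not listed) around PKM, RPL13A, EGR1 and ESR1, against distance from the start of the named gene in kb. At RPL13A a single region of 111 and 104 kb runs through FCGRT and RCN3 at 1 h, against 16.6 and 15.7 kb without stress.

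The maps of PKM, a gene with the largest gap, and of RPL13A, EGR1 and ESR1, chosen after their values were seen, show these patterns as called regions. At PKM the no-stress libraries held a region of 41.1 and 47.9 kb over the gene and no 1 h region touched it. At RPL13A the region began within 1.1 kb of the gene start in all 4 libraries, and ran on for 111 and 104 kb at 1 h, against 16.6 and 15.7 kb without stress. EGR1, an immediate early transcription factor, had 100 and 100% of its 3.83 kb covered at 1 h, against 30.3 and 23.6% without stress (limma, adjusted p = 0.0133), inside a region of 61.0 and 49.7 kb at 1 h. It spans chr5:138465479-138469303. ESR1, which encodes the oestrogen receptor (chr6:151656672-152129619), had 31.1 and 31.2% of its 473 kb covered at 1 h, against 70.7 and 68.5% without stress (limma, adjusted p = 0.0433). The covered part lay differently, since the 10 kb past the end of ESR1, where SYNE1 overlaps it on the opposite strand, were covered to 100 and 100% at 1 h, against 0 and 0% without stress.

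Gene starts were occupied less often at 1 h. A region lay within 1 kb of the start of 35.2 and 43.0% of 15812 genes with known strand at 1 h, against 53.8 and 61.4% without stress, a difference of -18.5 points (exact 2-sided permutation test, p = 0.333). The start used is the outer edge of the gene span, which equals the start site of the listed promoter in 13257 of these genes. Both libraries of both groups occupied 2231 starts (14.1%). Starts occupied in both no-stress and in neither 1 h library numbered 1995 (12.6%), and starts in the opposite pattern numbered 368 (2.33%). No library occupied 3227 starts (20.4%), and 7991 (50.5%) were mixed, with replicates of a group that differed. Of the starts occupied in 1 h replicate 1, 59.1% were so in 1 h replicate 2, against 69.6 and 78.8% in the no-stress libraries. Of those in 1 h replicate 2, 48.5% were so in 1 h replicate 1, against 66.4 and 75.1% in the no-stress libraries.

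The classes of starts held promoters of different base composition. To show what kind of promoter each class holds, the 250 bases before the start (RefSeq, GRCh38.p14, strand of the gene) are given for YWHAG as a start vacated at 1 h, for RCN3 and ZDHHC19 as starts newly covered and for EGR1 as a start occupied throughout, with every CG dinucleotide in capitals.
YWHAG (chr7:76358992-76359241, minus strand): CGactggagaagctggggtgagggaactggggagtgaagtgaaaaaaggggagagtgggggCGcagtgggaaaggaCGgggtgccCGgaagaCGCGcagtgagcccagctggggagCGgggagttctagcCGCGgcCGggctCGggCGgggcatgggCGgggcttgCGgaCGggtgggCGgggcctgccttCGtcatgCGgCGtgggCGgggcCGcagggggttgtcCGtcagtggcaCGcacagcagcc
RCN3 (chr19:49527753-49528002, plus strand): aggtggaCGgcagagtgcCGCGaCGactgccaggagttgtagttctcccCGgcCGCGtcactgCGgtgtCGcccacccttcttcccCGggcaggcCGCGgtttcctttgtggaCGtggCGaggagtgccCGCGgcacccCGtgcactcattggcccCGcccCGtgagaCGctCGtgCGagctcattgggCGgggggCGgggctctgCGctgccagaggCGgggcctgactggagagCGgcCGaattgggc
ZDHHC19 (chr3:196211401-196211650, minus strand): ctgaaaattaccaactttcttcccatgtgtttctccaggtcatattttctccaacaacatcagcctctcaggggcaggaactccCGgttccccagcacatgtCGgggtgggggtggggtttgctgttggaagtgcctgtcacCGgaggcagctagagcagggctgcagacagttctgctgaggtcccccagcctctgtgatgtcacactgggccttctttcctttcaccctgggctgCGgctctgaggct
EGR1 (chr5:138465229-138465478, plus strand): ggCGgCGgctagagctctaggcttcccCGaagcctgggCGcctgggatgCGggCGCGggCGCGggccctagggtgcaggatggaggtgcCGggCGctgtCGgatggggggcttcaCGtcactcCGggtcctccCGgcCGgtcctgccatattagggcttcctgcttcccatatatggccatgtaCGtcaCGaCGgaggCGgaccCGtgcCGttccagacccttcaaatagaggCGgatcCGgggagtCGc

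These stretches hold 23 CG dinucleotides in YWHAG, 28 in RCN3, 4 in ZDHHC19 and 25 in EGR1. Over the 13257 genes whose start equals the start site of the listed promoter, the median was 17 CG in 250 bases. It was 7 among newly covered starts and 20 among vacated starts, and it was 22 among starts occupied in all 4 libraries and 4 among starts occupied in none. ZDHHC19 is therefore closer than RCN3 to the typical newly covered start. The letters TATAAA, searched on the gene's strand in the last 50 of these bases, were found in 10.1% of newly covered, 2.13% of vacated, 3.22% of always occupied and 8.16% of never occupied starts, against 4.25% of all.

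Genes well covered without stress show the change along the transcription unit. There were 3215 genes at least 50% covered in both no-stress libraries, a choice made on the no-stress values, which are therefore high by construction. At 1 h 494 of them (15.4%) were still at least 50% covered in both libraries and 717 (22.3%) were under 10% covered in both. As a gauge of the choice, 74.96% of the genes at least 50% covered in no-stress replicate 1 were so in no-stress replicate 2, and 23.5 and 20.8% were so in the 1 h libraries. The 1 h replicates shared fewer genes with each other. Of the genes at least 50% covered in 1 h replicate 1, 50.6% were so in 1 h replicate 2, against 51.7 and 49.5% in the no-stress libraries, and of those in 1 h replicate 2, 61.3% were so in 1 h replicate 1, against 55.4 and 54.6% in the no-stress libraries. In the 2623 of them with known strand, the first 5% of the gene was covered to 44.2 and 45.7% at 1 h, against 89.6 and 91.6% without stress. The stretch from 45 to 50% of gene length was covered to 29.6 and 27.8% at 1 h, against 88.5 and 84.4% without stress.

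**Figure D3:**
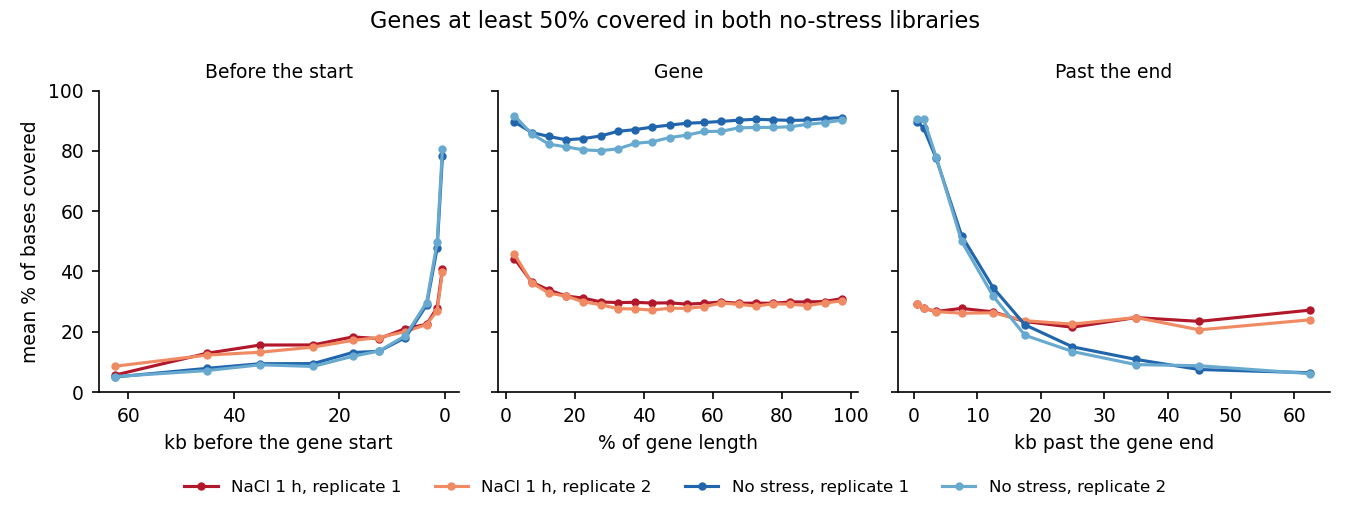
Mean percentage of bases covered before, within and past genes that were at least 50% covered in both no-stress libraries, against distance in kb or percentage of gene length, for each library. Past the end the NaCl 1 h lines stay between 20.7 and 29.3% out to 75 kb, while the no-stress lines lie at 89.7 and 90.5% next to the gene end and at 6.43 and 6.12% from 50 to 75 kb, over 1408 genes next to the end and 34 from 50 to 75 kb.

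Past the end of these genes the groups crossed. In the first 1 kb past the end coverage was 29.1 and 29.3% at 1 h, against 89.7 and 90.5% without stress, and from 5 to 10 kb it was 27.8 and 26.2% at 1 h, against 51.9 and 50.0% without stress. From 15 to 20 kb the groups lay close, with 23.4 and 23.7% at 1 h, against 22.3 and 18.9% without stress. From 30 to 40 kb coverage was 24.7 and 24.7% at 1 h, against 10.8 and 9.13% without stress (114 genes with no other gene in the way), and from 50 to 75 kb it was 27.2 and 24.0% at 1 h, against 6.43 and 6.12% (34 genes). These bands hold different genes, since fewer genes have no neighbour farther out. In the 78 genes with no other gene in the 50 kb past the end, coverage in the first 1 kb was 24.3 and 24.4% at 1 h, against 86.9 and 87.7% without stress, from 15 to 20 kb it was 23.3 and 22.7% at 1 h, against 17.4 and 17.5% without stress, and from 40 to 50 kb it was 23.5 and 20.7% at 1 h, against 7.50 and 8.75% without stress. Before the start of the well-covered genes the groups crossed as well, and nearer to the gene. From 2 to 5 kb before it, coverage was 22.5 and 22.4% at 1 h, against 28.9 and 29.7% without stress (884 genes). From 5 to 10 kb it was 21.1 and 20.1% at 1 h, against 18.1 and 18.7% without stress (639 genes). From 30 to 40 kb before the start it was 15.6 and 13.2% at 1 h, against 9.42 and 9.07% without stress (154 genes). With genes chosen on no-stress replicate 1 alone, coverage from 20 to 50 kb past the end was 20.7 and 20.2% at 1 h, against 8.38% in no-stress replicate 2, and with replicate 2 as the chooser it was 21.3 and 19.8% at 1 h, against 9.45% in no-stress replicate 1.

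Isolated genes of any coverage were measured over 10 kb alone, which ends before the distance at which the groups crossed past the end of well-covered genes. Over 1052 genes with no other gene within 20 kb, the 10 kb past the end were covered to 8.25 and 9.93% at 1 h, against 14.6 and 13.2% without stress, and the 10 kb before the start to 6.75 and 8.10% at 1 h, against 7.57 and 7.30% without stress. The downstream side exceeded the upstream side by 1.503 and 1.829 points at 1 h, against 7.01 and 5.90 points without stress (exact 2-sided permutation test, p = 0.333). Flank by flank, 763 of 4360 downstream flanks of 10 kb (17.5%) lay at least 20 points lower and 189 (4.33%) at least 20 points higher in both 1 h libraries, and limma called 307 lower (7.04%) and 76 higher (1.74%). Without replicate 2 of the 1 h group limma called 267 lower and 572 higher, and without replicate 1 it called 342 lower and 1077 higher, so higher calls then outnumbered lower ones. At least 20 points apart were 920 lower and 411 higher without replicate 2 and 902 lower and 440 higher without replicate 1. Upstream, 236 of 4457 flanks (5.30%) lay at least 20 points lower and 212 (4.76%) at least 20 points higher, which became 322 lower and 509 higher without replicate 2 of the 1 h group and 318 lower and 513 higher without replicate 1. limma called 0 upstream flanks lower (0.00%) and 0 higher (0.00%), with 377 lower and 285 higher at an unadjusted p under 0.05. Without replicate 2 of the 1 h group it called 66 lower and 408 higher, without replicate 1 it called 144 lower and 938 higher, and with the replicate number as a block it called 80 lower and 88 higher.

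The downstream flanks with the largest gap included that of a steroid receptor. PGR, the progesterone receptor, had the 10 kb past its end covered to 0 and 0% at 1 h, against 100 and 100% without stress (limma, adjusted p = 0.0163), and its 100 kb body to 15.1 and 18.0% at 1 h, against 100 and 100% without stress (limma, adjusted p = 0.0130). The flanks of APP, the amyloid precursor, BCL2L1, an inhibitor of cell death, ZNF207, SENP6, a SUMO protease, BTBD9, ZFAND3, CATSPER3, PANK3, a pantothenate kinase, and SDHAF2, an assembly factor of succinate dehydrogenase, had the same values. In the opposite direction, the flanks past INTS6, a subunit of the Integrator complex, GLUL, glutamine synthetase, KCNJ1, a potassium channel, NOSIP, RCN3 and LGALS7 were covered to 100 and 100% at 1 h, against 0 and 0% without stress (limma, adjusted p = 0.0163). NOSIP and RCN3 face each other past the end of RPL13A and share 8.17 kb of these flanks, as BTBD9 and ZFAND3 share 6.17 kb of theirs, so each pair is 1 observation. CCDC182 had these values too, and the flanks of KISS1, ZDHHC19 and DAND5 came within 7 points of them. The body of GLUL was covered to 100 and 100% at 1 h, against 90.1 and 93.4% without stress, so there the gene stayed covered while the region past its end appeared.

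The reach of single regions was measured at 678 genes whose last base lay inside a region in all 4 libraries, as the distance from the gene end to the downstream edge of that region. This measure was chosen after the data were seen and is given without a test. The median reach was 13.5 and 4.63 kb at 1 h, against 9.56 and 8.68 kb without stress, so the groups overlapped in the median. In both 1 h libraries against both no-stress libraries the reach was longer at 206 genes (30.4%) and shorter at 233 (34.4%), and by at least 10 kb it was longer at 118 (17.4%) and shorter at 75 (11.1%). Before the start, measured at 1805 genes, it was longer at 406 (22.5%) and shorter at 750 (41.6%), and by at least 10 kb longer at 103 (5.71%) and shorter at 112 (6.20%). The far tail past the end was longer at 1 h, where 23.01 and 8.41% of the regions reached over 50 kb, against 5.31 and 3.69% without stress. Reach past the end was at least 50 kb longer in both 1 h than in both no-stress libraries at 38 genes (5.60%) and at least 50 kb shorter at 6 (0.885%), a size of loss that few no-stress regions are long enough to allow. Before the start it was at least 50 kb longer at 32 (1.77%) and shorter at 8 (0.443%). Neighbouring genes can share 1 region and are then counted once each.

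**Figure D4:**
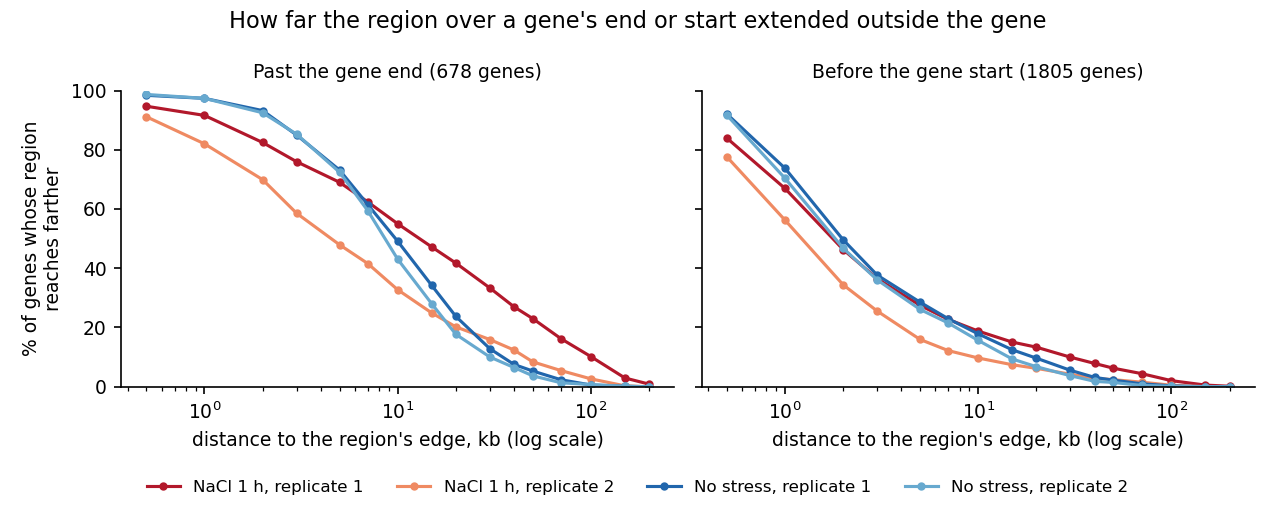
Share of genes whose covering region reaches farther than the distance on the x axis (kb, log scale) past the gene end (left, 678 genes) or before the gene start (right, 1805 genes), for each library. At 50 kb past the end the NaCl 1 h libraries lie at 23.01 and 8.41% and the no-stress libraries at 5.31 and 3.69%.

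Examples of the longest tails, picked after their values were seen, follow. The region over the end of MED13L, a Mediator kinase-module subunit, reached 195 and 169 kb at 1 h, against 10.9 and 14.7 kb without stress. OAZ1, ornithine decarboxylase antizyme, had 134 and 124 kb at 1 h, against 6.54 and 8.46 kb without stress. HSP90AA1, the stress-inducible cytosolic HSP90, had 137 and 97.7 kb at 1 h, against 11.6 and 9.90 kb without stress. CDKN1A, the cell cycle inhibitor p21, had 103 and 88.9 kb at 1 h, against 2.78 and 4.53 kb without stress. For H3-3B, a replication-independent histone H3, the reach was 99.7 and 81.3 kb at 1 h, against 1.95 and 2.83 kb without stress. JUND, an AP-1 subunit, had 110 and 98.9 kb at 1 h, against 26.9 and 27.8 kb without stress, and EEF2, the translation elongation factor, had 156 and 121 kb at 1 h, against 39.2 and 39.7 kb without stress. Among ribosomal protein genes the list held RPL13A, RPL3 and RPS27. These genes come from those with the largest gap in reach, so that their groups do not overlap follows from the choice.

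Long genes were compared between front and back. Over 2757 genes of at least 100 kb, the front part of the gene (the first of 3 equal parts) was covered to 7.07 and 8.23% at 1 h, against 15.2 and 12.7% without stress, and the last part to 10.3 and 11.3% at 1 h, against 17.01 and 14.27% without stress. Front minus back was -3.27 and -3.04 points at 1 h, against -1.82 and -1.57 points without stress (exact 2-sided permutation test, p = 0.333). With regions of at least 5 kb alone the order of the groups reversed, to -2.41 and -1.74 points at 1 h, against -2.98 and -2.47 points without stress. Of tested genes, 24.9% of those of 3 to 10 kb and 4.03% of those over 300 kb lay at least 20 points lower at 1 h. The shares at least 20 points higher were 5.60 and 0.780%, so both directions were rarer among the longest genes. Without stress, all genes of 3 to 10 kb averaged 36.8 and 38.0% covered, and all genes over 300 kb averaged 8.12 and 6.28%. The longest genes thus had less room to fall, and the part that starting coverage plays in these shares was not tested.

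The gene lists below were chosen with earlier results known, and each is described by counts beside the background of 19.0% of tested genes at least 20 points lower and 3.83% at least 20 points higher. All genes tested averaged 30.0 and 28.7% without stress. A list covered to a greater extent has more room to fall, and the part that starting coverage plays in the counts was not tested. Among the immediate early genes, which MAP kinases switch on within minutes, EGR1, FOSB (an AP-1 subunit) and KLF2 (a transcription factor) lay at least 20 points higher and 7 of 32 lay at least 20 points lower. FOSB had 100 and 100% covered at 1 h, against 33.7 and 34.1% without stress (limma, adjusted p = 0.0130), and KLF2 had 56.3 and 56.6% at 1 h, against 12.8 and 0% without stress (limma, adjusted p = 0.0582). The AP-1 genes JUN, JUNB and JUND and the early genes IER2, IER5, GADD45B, BTG1 and CCN1 were fully covered in all 4 libraries, so extent could not rise there. Past the end, the 10 kb behind EGR1 were covered to 100 and 100% at 1 h, against 2.84 and 4.87% without stress. Within the same list, DUSP4 and ZFP36L1, which promotes decay of AU-rich mRNAs, had 0 and 0% at 1 h, against 100 and 100% without stress (limma, adjusted p = 0.0130).

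Genes of the osmolyte response, NFAT5, its tonicity factor, among them, lay apart about as often as all genes. Of 18 tested, 1 lay at least 20 points higher (5.56%, against 3.83% of all genes tested) and 4 at least 20 points lower (22.2%, against 19.0%). The higher one was AQP3, a water and glycerol channel, with 100 and 53.6% at 1 h, against 8.999 and 11.8% without stress (limma, adjusted p = 0.141). AKR1B1, which makes sorbitol, had 0% in all 4 libraries. SLC5A3, the inositol transporter, had 33.4 and 33.8% at 1 h, against 11.6 and 53.04% without stress, and the groups overlapped. NFAT5 itself fell, with 29.9 and 19.1% of its span at 1 h, against 87.2 and 77.1% without stress (limma, adjusted p = 0.0428). WNK1, a kinase that regulates ion cotransporters, fell to 3.80 and 5.19% at 1 h, against 57.8 and 50.4% without stress (limma, adjusted p = 0.0475).

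Among 17 chaperone genes tested, 1 lay at least 20 points higher (5.88%) and 5 at least 20 points lower (29.4%). HSPH1, a cochaperone of HSP70, rose, with 91.5 and 72.1% at 1 h, against 14.3 and 9.71% without stress (limma, adjusted p = 0.0458), and HSPA8 and HSP90AB1 were fully covered in all 4 libraries. Those lower included HSPD1 and HSPE1, the mitochondrial chaperonin pair, and HSP90B1 of the endoplasmic reticulum. HSPD1 had 38.9 and 30.6% at 1 h, against 100 and 100% without stress (limma, adjusted p = 0.0156). In the integrated stress response, 8 of 17 genes lay at least 20 points lower and 0 higher. There CHAC1, a glutathione-degrading enzyme, had 0 and 0% at 1 h, against 100 and 100% without stress (limma, adjusted p = 0.0130), while DDIT3 and XBP1 were fully covered throughout.

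Growth and housekeeping lists held many genes at least 20 points lower. Of 62 cytosolic ribosomal protein genes tested, 35 lay at least 20 points lower, 26 of them were called lower by limma, 1 lay higher and 12 of 78 genes in the list were fully covered in all 4 libraries. Their mean coverage was 41.8 and 40.3% at 1 h, against 89.7 and 93.2% without stress. They thus had more room to fall than all genes tested, which averaged 30.0 and 28.7% without stress. RPS3A, RPL7A, RPLP0 and RPS27A each had 0 and 0% at 1 h, against 100 and 100% without stress (limma, adjusted p = 0.0130), and RPL27, the higher one, had 100 and 62.0% at 1 h, against 0 and 0% without stress (limma, adjusted p = 0.0803). Proteasome subunits lay at least 20 points lower in 13 of 29 and oxidative phosphorylation subunits in 12 of 31, with 0 higher in both lists. Of 18 glycolysis genes 8 lay lower and 1, GPI, higher. GAPDH, like PKM, had 0 and 0% at 1 h, against 100 and 100% without stress (limma, adjusted p = 0.0130).

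Genes of the transcription machinery included such cases. Cleavage, polyadenylation and termination factors, which release Pol II at gene ends, averaged 14.1 and 14.8% at 1 h, against 61.5 and 59.2% without stress, and 11 of 21 tested lay at least 20 points lower with 0 higher. CPSF4, a subunit of the polyadenylation signal recognition complex, had 0 and 0% at 1 h, against 100 and 94.7% without stress (limma, adjusted p = 0.0131). RBBP6, another cleavage factor, had 11.8 and 16.6% at 1 h, against 100 and 100% without stress (limma, adjusted p = 0.0130). PCF11, a termination factor, had 0 and 41.8% at 1 h, against 100 and 100% without stress (limma, adjusted p = 0.0901). Of 25 Pol II elongation genes 10 lay at least 20 points lower, among them SSRP1 of the FACT complex with 0 and 0% at 1 h, against 100 and 100% without stress (limma, adjusted p = 0.0130). In the cohesin and CTCF list 6 of 17 lay lower and CDCA5 (sororin, which holds sister chromatids together) was higher, with 100 and 92.6% at 1 h, against 24.9 and 21.5% without stress (limma, adjusted p = 0.0156).

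**Figure D5:**
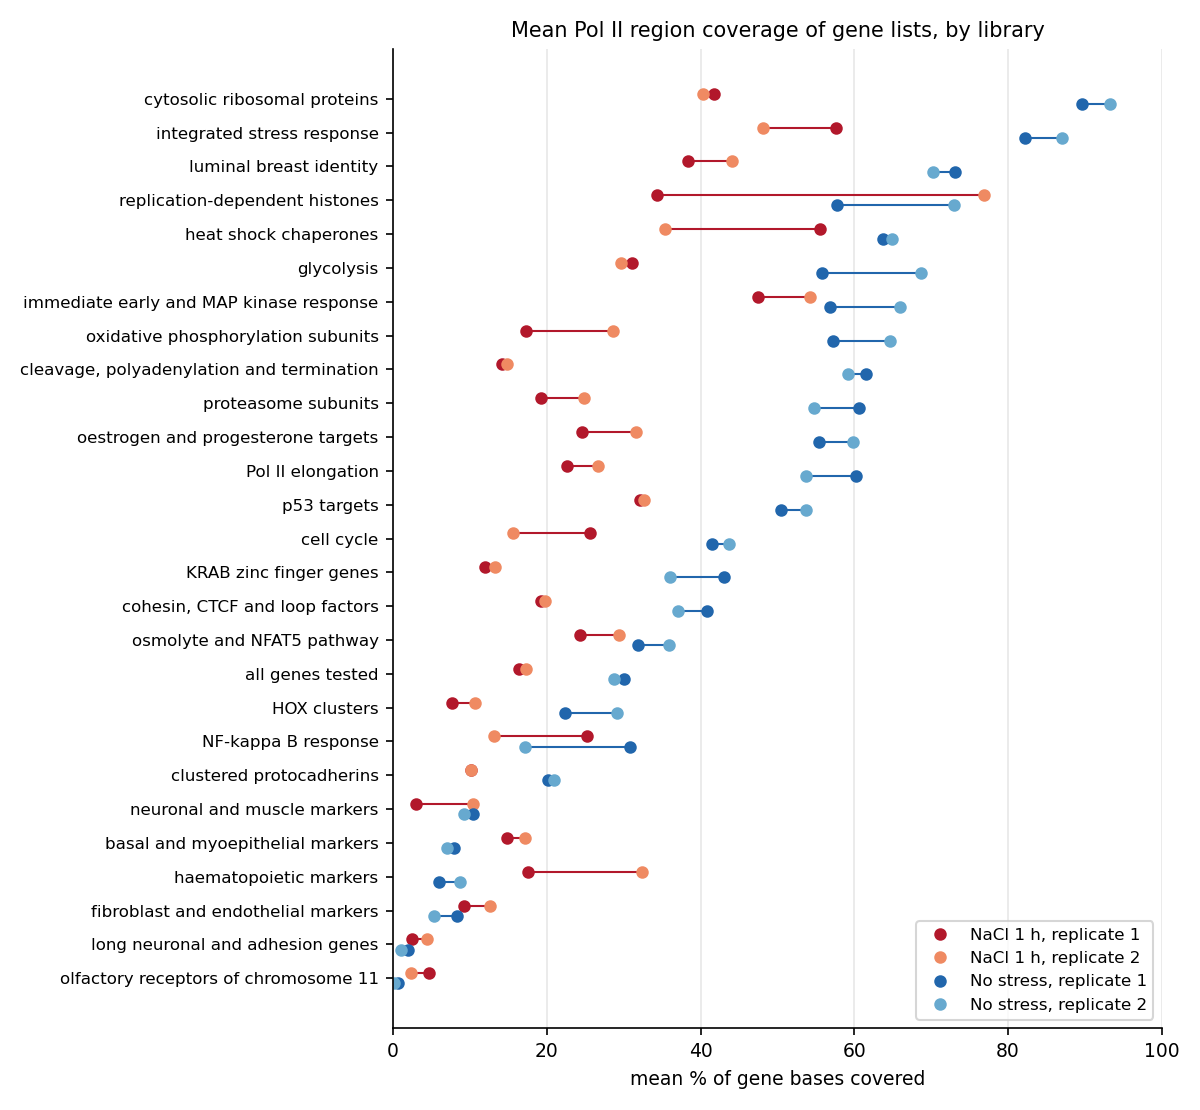
Mean percentage of gene bases covered in each gene list, for each library (NaCl 1 h above no stress in every row), with lines joining replicates and lists ordered by their no-stress mean. Lists high without stress, such as cytosolic ribosomal proteins, lie lower at 1 h, and lists near 0 without stress, such as olfactory receptors, lie at or slightly above it.

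Luminal genes and markers of other lineages are given side by side. Of 22 luminal breast genes tested, 8 lay at least 20 points lower and 0 higher. CDH1, the epithelial cadherin, had 11.1 and 16.8% at 1 h, against 100 and 95.2% without stress (limma, adjusted p = 0.0138), and TRPS1, a GATA-type repressor, had 48.5 and 56.3% at 1 h, against 100 and 100% without stress (limma, adjusted p = 0.0191). Among haematopoietic markers 2 of 12 tested lay at least 20 points higher and 0 lower. These were ITGAM, an integrin of myeloid cells, with 98.1 and 95.1% at 1 h, against 3.53 and 0% without stress (limma, adjusted p = 0.0131), and CD79A, a B cell receptor subunit, with 100 and 80.9% at 1 h, against 0 and 0% without stress (limma, adjusted p = 0.0296). Neither gene is among the 5 defining markers of that lineage, of which 0 were at least 50% covered in both libraries of either group. Of 12 fibroblast and endothelial markers 1, PECAM1, lay at least 20 points higher and 1, VIM, at least 20 points lower, and 0 of 8 neuronal and muscle and 0 of 8 basal and myoepithelial markers lay that far in either direction. The median differences were -25.5 points for luminal, 6.90 points for haematopoietic, 1.42 points for fibroblast and endothelial, -0.61 points for neuronal and muscle and 6.42 points for basal and myoepithelial genes, against -3.91 points for all genes tested. Without stress the luminal list averaged 73.1 and 70.2%, the neuronal and muscle list 10.4 and 9.20% and the basal and myoepithelial list 7.91 and 7.07%. The last 2 lists thus had little room to fall and the luminal list less room to rise, so these counts and medians do not compare like with like. Long neuronal and adhesion genes averaged 2.44 and 4.36% at 1 h, against 1.89 and 1.06% without stress, and olfactory receptor genes of chromosome 11 averaged 4.64 and 2.35% at 1 h, against 0.652 and 0.0895% without stress.

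Positions of CTCF, the insulator protein, and of RAD21, a cohesin subunit, lay inside Pol II regions less often at 1 h. Of 59843 CTCF summits of no-stress replicate 1, 15.6 and 17.6% lay in a 1 h Pol II region, against 27.1 and 30.6% in a no-stress region. Of 18297 RAD21 summits of no-stress replicate 1 the shares were 21.1 and 23.8% at 1 h, against 37.2 and 44.3% without stress. Summits called at 1 h gave the same order, with 16.8 and 19.0% of 35374 CTCF summits of replicate 1 in 1 h regions, against 29.6 and 34.1% in no-stress regions. Past the end of well-covered genes, flanks with a CTCF summit in the first 10 kb were covered from 10 to 20 kb to 30.2 and 28.8% at 1 h, against 28.5 and 26.4% without stress (89 genes). Flanks without one were covered there to 21.1 and 21.2% at 1 h, against 25.3 and 22.1% without stress (193 genes). The classes of flank already differed at 1 h in the first 10 kb. Coverage there was 33.6 and 32.1% at 1 h with a summit, against 64.9 and 64.3% without stress. Without a summit it was 22.7 and 21.3% at 1 h, against 64.7 and 63.8% without stress. The part that the number and width of called regions play in these values was not tested.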

How the data were processed

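The 4 Pol II lists are broad regions, each from a single library, in the layout MACS2 writes. Per the submitters' processing notes the tools included cutadapt, Bowtie2 version 2.2.6 and MACS2 and the build was hg38. No source used here states the roles of the tools, the threshold or the control. The values used from the deposited lists are region starts and ends, and for CTCF and RAD21 the summit positions, all in bases, while the deposited scores were left aside.

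Regions on chromosomes 1 to 22 and X were intersected with 19974 protein-coding genes of RefSeq (GRCh38.p14). Strand came from the RefSeq promoter table for 15812 of them, none on chromosome 8, and downstream, upstream and start measures use these alone. Intergenic space is 945.3 Mb and includes assembly gaps. Library values were compared by exact 2-sided permutation tests, which cannot go below p = 0.333. Percentages of genes of at least 3 kb, of 10 kb flanks and of 50 kb tiles were compared with limma 3.58.1 (R 4.3.3, variance trend, Benjamini-Hochberg over all features with a covered base, threshold 0.05). A count without a test takes features at least 20 points apart between all libraries of both groups. On simulated percentages drawn from real replicate pairs limma recovered no changed gene body or flank and a minority of changed tiles, so its counts do not measure how many features differ.

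Genes were named as the members of each list with the largest difference, up to 5, others that a sentence on a list turns on, and the 10 genes with the largest gap each way in body and downstream flank, ties going to the longer gene. Members and lists were chosen with earlier results of these data known. Alternatives changed region width, joining of gaps, scaling, filter, flank and tile size, the replicate block and the libraries left out. Python 3.11.15 with numpy 2.4.6, pandas 2.3.3 and scipy 1.17.1 was used.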

Additional observations from a re-analysis of the deposited data

How the results depend on the processing

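The 6 library-level comparisons kept their direction in 53 of 54 alternatives, the exception being front minus back coverage of long genes, which came to 0.65 points (1 h minus no stress) with regions of at least 5 kb alone, a setting added after seeing the data. Many of these outcomes were fixed in advance and say nothing on stability. The groups did not overlap in any of the 6 measures, so leaving out 1 library could not reverse a direction. The replicate block gives the same mean difference by arithmetic. The p of the 6 comparisons stayed at or above 0.333, so it carries no information on stability, and the cause of the reversal was not tested. None of limma's 8 counts stayed within 1.5 times its value in every setting. Scaled to total coverage, 0 bodies were called higher and 0 lower, and likewise 0 and 0 downstream flanks and 0 and 0 tiles. Deviations of gene body coverage in same-numbered libraries were hardly correlated (r = 0.040 across genes). This value covers bodies alone and cannot exclude that these libraries shared a culture or batch. The replicate block gave 0 bodies higher and 0 lower, 88 upstream flanks higher and 80 lower, and 18 tiles higher and 14 lower. For the downstream flanks the block changed no count by over 1.5 times, and for the 6 library-level comparisons it could not change the direction. Regions of at least 5 kb gave 2409 bodies lower, 560 downstream flanks lower, 62 upstream flanks higher and 101 lower, and 10 tiles higher, and under this setting 407 bodies, 98 downstream flanks, 112 upstream flanks and 38 tiles lay at least 20 points higher. Regions of at least 1 kb left 0 tiles higher and 0 lower, as did dropping the filter (0 and 0). Without a variance trend, 490 downstream flanks were lower, 57 upstream flanks higher and 58 lower, and 21 tiles higher. Flanks of 5 kb gave 732 downstream lower, 55 upstream higher and 89 upstream lower. Flanks of 20 kb gave 16 downstream higher and 15 lower, and tiles of 20 kb gave 27 higher and 18 lower. Leaving out 1 library at a time, limma called 0 to 1406 bodies higher and 0 to 1469 lower, 57 to 1077 downstream flanks higher and 267 to 515 lower, 0 to 938 upstream flanks higher and 0 to 144 lower, and 0 to 5198 tiles higher and 0 to 56 lower. The lone library of a group is then assumed to vary like the other group, and the lowest counts of bodies and tiles came from leaving out either no-stress library. Counts of features at least 20 points apart, which need fewer libraries to be met in that case, ranged from 812 to 1322 bodies higher, 234 to 440 downstream flanks higher, 253 to 513 upstream flanks higher and 318 to 378 lower, and 120 to 417 tiles higher and 22 to 30 lower. Bodies and downstream flanks at least 20 points lower stayed within 1.5 times their count under every alternative run. Depth is not known for any list, so the share of the differences that calling sensitivity sets could not be measured.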
